A study of Bos taurus with 4 samples.

Results

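Heat shock proteins and their co-chaperones were compared between Limousin (LIM) and Holstein-Friesian (HF) bulls in the semitendinosus, a muscle of the hind leg. The genes were all those on the array whose symbol begins with HSPA, HSPB, HSPD, HSPE, HSPH, HSP90, DNAJ or BAG followed by a digit. This rule found 48 genes among 7788 genes with a symbol, and 45 of them were well above background often enough to be tested. HSPBP1 and HSPBAP1 met the rule only through the first letters of their symbols and are no small heat shock proteins. CRYAB, HSPB1, HSPB7, HSPA9 and HSP90AB1 had no probe under these symbols and were not analysed here.

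The study compared a beef breed (LIM) with a dairy breed (HF) at 15 months of age. On each of 4 two-colour microarrays the RNA of 1 LIM bull (red dye, Cy5) competed with that of 1 HF bull (green dye, Cy3), which makes 4 bulls a breed. The dyes were never swapped, and breed and dye therefore cannot be told apart. A log2 ratio below is the signal in the channel labelled LIM over that in the channel labelled HF, and errors of mean ratios are moderated standard errors over 4 arrays. For HSPA8, the only one of these genes discussed in the study's text, the direction that follows from the dye labels is the opposite of the direction given there, for the arrays and for quantitative PCR alike. With the dyes read the other way, every log2 ratio below would change its sign and keep its size and p. The small number of arrays limits the precision.

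Chaperones of the HSP70 family bind exposed hydrophobic stretches of unfolded proteins in a cycle driven by ATP. J-domain proteins (DNAJA, DNAJB, DNAJC) deliver clients and stimulate the ATPase of HSP70, and BAG proteins and HSPH1 release the nucleotide so that the client is let go. HSP90 completes the folding of kinases and receptors, HSPD1 and HSPE1 form the folding chamber of the mitochondrial matrix, and small heat shock proteins (HSPB) hold unfolded proteins without ATP. In muscle these systems assemble and maintain the sarcomere, and several of their genes are induced by the heat shock factor HSF1 when proteins unfold.

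HSPA8, the constitutive HSP70 of the cytosol, was also measured by the study with quantitative PCR, which gave it as lower in the beef breeds than in HF. The primers are listed under the RefSeq transcript that also names the array probe of HSPA8. The probe sequence was not used here, so the primers do not show what the probe binds. They are shown 5′ to 3′, each 21 bases long, to identify that transcript.

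HSPA8 forward primer: agacttgctgctgttggatgt
HSPA8 reverse primer: gcaggttgttatccttggtca

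None of the 45 genes passed the test across all probes (limma, Benjamini-Hochberg adjusted p under 0.05), against 5.47% of the 15855 probes tested (2.96% higher and 2.51% lower in the LIM channel). At an unadjusted p under 0.05 there were 14 of 45 (31.1%), against 27.3% of all probes. Of these, 11 were higher in the LIM channel (background 15.1%) and 3 were lower (background 12.2%). The share of these genes was thus near the background, and the smallest adjusted p in limma was 0.0545, for HSPA8.

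Mean log2 ratios ran from -0.42 for HSPA13 to 0.73 for HSPA1A. There were 29 genes above 0 and 16 below 0, against 3223 and 3153 of the 6376 genes with a symbol and a tested probe. The median was 0.085, against 0.018 over all probes tested and 0.0029 over those 6376 genes. The medians of the chaperone genes by array were 0.053, 0.068, 0.085 and 0.054. Ratios were above 0 on all 4 arrays for 12 of the genes (background 21.2%) and below 0 on all 4 for 5 (background 15.7%). The signals of all LIM bulls lay above those of all HF bulls for 6 genes (13.3%, background 9.49%), namely HSPA8, HSPE1, DNAJC5, DNAJC5G, DNAJC21 and DNAJC24, and below them for 1 gene (2.22%, background 7.36%), HSPA5. When each array was centred on its median in place of loess, the median of all probes moved to 0.25 and that of these genes to 0.61, which is 0.36 above it. With that setting 17 of the 45 genes passed the test, all with ratios above 0, against 24% of all probes, and 92.8% of the probes that passed were higher in the LIM channel, against 54.1% with loess. With the software's processed signals 0 passed, against 8.43% of all probes, and by the methods' t-test with its fold threshold 3 passed, against 9.33%. Leaving out array 1, 2 or 4 left 0 of all probes past the test and leaving out array 3 left 51, with none of the 45 genes among them.

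**Figure D1:**
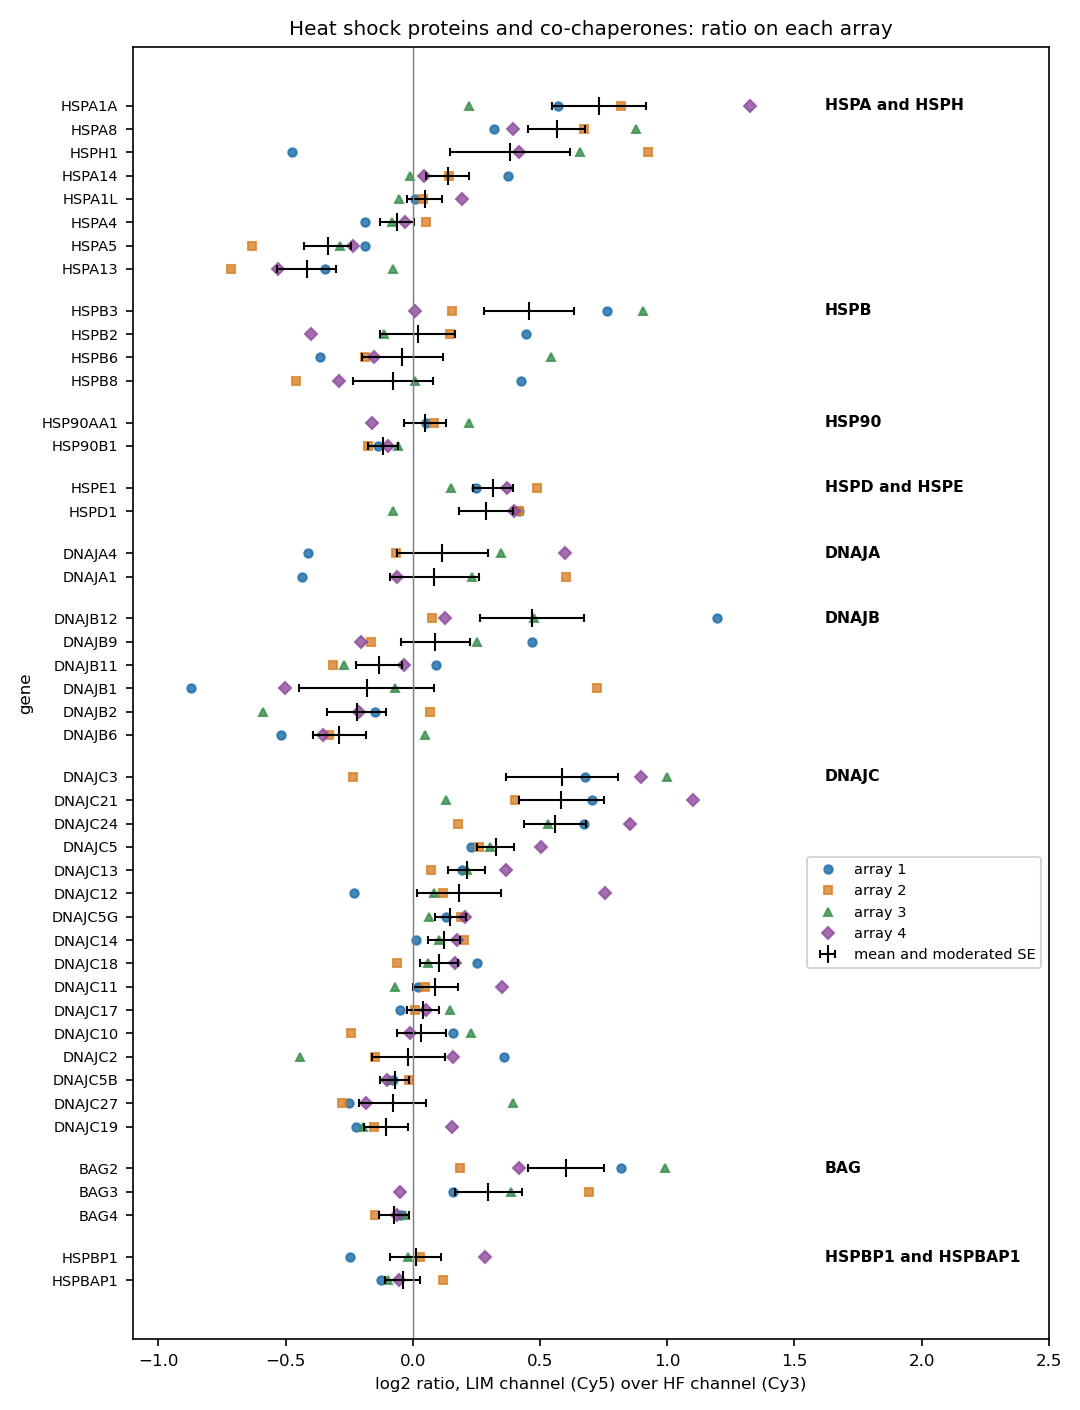
Log2 ratio of the LIM over the HF channel (horizontal axis) for the 45 genes tested, by family (vertical axis). Each symbol is 1 of 4 arrays and each bar a mean with the moderated SE; the means run from -0.42 for HSPA13 to 0.73 for HSPA1A, and for HSPH1 and DNAJB1 array 1 lies far below array 2. Among genes chosen for naming, HSPA5, HSP90B1, HSPB6, HSPB8, DNAJB1, DNAJB2, DNAJB6 and DNAJB11 turn above 0 with median centring in place of loess. DNAJC2, not among those genes, goes from -0.018 to 0.61.

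Within the HSP70 family the cytosolic members HSPA8 and HSPA1A had the highest ratios. HSPA8 had log2 ratios of 0.32, 0.67, 0.88 and 0.39 on arrays 1 to 4. The normalized log2 signals behind them were 13.47, 13.76, 14.01 and 13.70 in the LIM bulls and 13.15, 13.09, 13.13 and 13.31 in the HF bulls. Every LIM bull was above every HF bull, and the HF bulls lay closer together than the LIM bulls. The mean ratio was 0.57 ± 0.11, a 1.48-fold difference, and did not pass the test (adjusted p = 0.0545, limma). HSPA8 lay close to the threshold: it passed in 5 alternative limma or t-test settings besides median centring, named with their values in the closing section, and over all alternatives its adjusted p lay between 0.0322 and 0.184. In bulk muscle a gene may differ through less RNA per cell or through fewer cells of a type, and these cannot be told apart.

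HSPA1A encodes the stress-inducible HSP70. Its log2 ratios were 0.57, 0.82, 0.22 and 1.33, above 0 on each array. The signals were 12.71, 12.37, 12.19 and 12.11 in the LIM bulls and 12.14, 11.55, 11.97 and 10.78 in the HF bulls. The HF bull of array 4 was the lowest of all 8, and the highest HF bull just overlapped the lowest LIM bull. The mean was 0.73 ± 0.18 (1.66-fold, adjusted p = 0.0823, limma). Its neighbour in the gene table, HSPA1L, was well above background on 3 arrays in the LIM channel and on 0 in the HF channel, with log2 signals too near background for a fold to be given. The probe sequences were not used here, so signal from close relatives of HSPA1A cannot be told apart from its own.

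HSPH1, a relative of HSP70 that acts as its nucleotide exchange factor, had log2 ratios of -0.48, 0.92, 0.66 and 0.42, with a mean of 0.38 ± 0.24 (adjusted p = 0.363, limma). Array 1 went the opposite way to the others. HSPA4, of the same HSP110 type, was measured by a pair of probes that disagreed. The brighter had a mean of -0.06 ± 0.07 (adjusted p = 0.593, limma), and the dimmer 0.36 ± 0.08, with ratios of 0.26, 0.57, 0.23 and 0.37 (adjusted p = 0.0666, limma). HSPA14, a ribosome-bound HSP70, had 0.14 ± 0.08.

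The HSP70 of the endoplasmic reticulum (ER), HSPA5 (BiP), lay on the other side of 0 from HSPA8. Its log2 ratios were -0.19, -0.63, -0.29 and -0.24, with a mean of -0.34 ± 0.09 (0.793-fold, adjusted p = 0.0997, limma). The LIM bulls had log2 signals of 11.99, 11.87, 11.99 and 11.96, and the HF bulls 12.18, 12.51, 12.27 and 12.19. The LIM bulls were almost alike, and all lay below the HF bulls. HSPA13, an HSP70 of the microsomal compartment, had the lowest mean of all, -0.42 ± 0.12, from ratios of -0.35, -0.72, -0.08 and -0.53 (adjusted p = 0.0996, limma). With median centring the HSPA5 ratio turned to 0.31, which is 0.059 above the median of all probes under that setting, and that of HSPA13 was -0.22. The median of the 8 genes of the HSPA and HSPH families was 0.092. It was 0.297 with processed signals, 0.60 with median centring, 0.14 with a gene's probes averaged, and 0.059 without array 1.

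**Figure D2:**
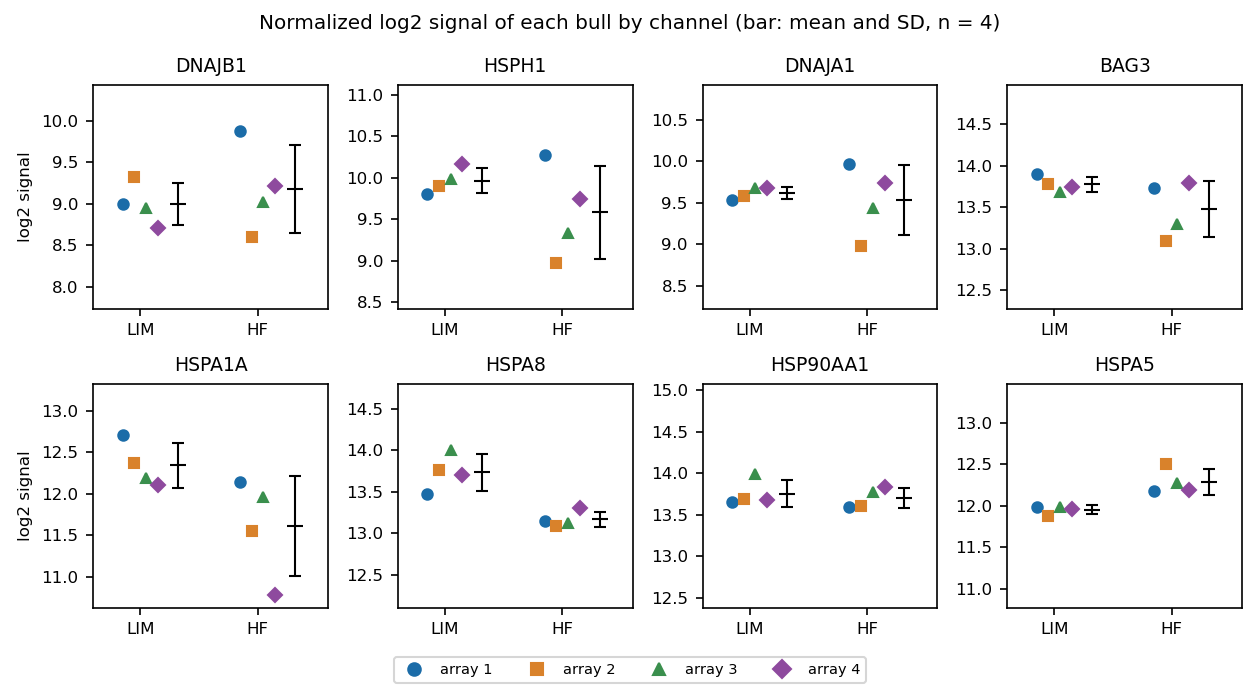
Normalized log2 signal (vertical axis, after loess and quantile normalization of the average signal) of each LIM and HF bull for 8 of the genes, with symbols for the 4 arrays and bars for the mean and SD of 4 bulls. Every panel spans the same number of log2 units. The HF bulls of DNAJB1, HSPH1, DNAJA1, BAG3, HSPA1A and HSPA5 are spread more widely than the LIM bulls, while those of HSPA8 and HSP90AA1 are not.

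BAG proteins act on the same cycle by opening the nucleotide-binding domain of HSP70. BAG2, which also restrains ubiquitination by the HSP70-bound ligase STUB1, had ratios of 0.82, 0.19, 0.99 and 0.42. The LIM bulls had log2 signals of 12.54, 12.45, 12.58 and 12.09 and the HF bulls 11.72, 12.26, 11.59 and 11.67. The ratio was above 0 on each array, although the HF bull of array 2 exceeded the lowest LIM bull. The mean was 0.60 ± 0.15 (1.52-fold, adjusted p = 0.0797, limma).

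BAG3 carries damaged sarcomere proteins to autophagy together with HSPB8 and HSP70. Its ratios were 0.16, 0.69, 0.39 and -0.05, with a mean of 0.30 ± 0.13 (adjusted p = 0.227, limma). BAG4, an inhibitor of death receptor signalling, had -0.07 ± 0.06 at a low signal that was well above background on 3 arrays in the LIM channel and on 1 in the HF channel. Of the partners of BAG3 in selective autophagy, LAMP2, a lysosomal membrane protein, had 0.36 ± 0.23 and VPS18, a subunit of vesicle tethering complexes, 0.10 ± 0.07. Neither of these 2 genes passed the test, and SYNPO2 was not well above background often enough to be tested.

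Among the J-domain proteins the DNAJC class held the highest ratios. DNAJC proteins share little beyond the J domain and bring HSP70 to particular sites. Of 16 genes tested, 12 were above 0 and 4 below 0, with a median of 0.113. At an unadjusted limma p under 0.05 there were 5 (31.2%, against 27.3% of all probes), all higher in the LIM channel (background 15.1%). The DNAJC median was 0.23 with the software's processed signals and 0.065 without array 4.

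DNAJC24, which takes part in the diphthamide modification of a translation elongation factor, had ratios of 0.67, 0.18, 0.53 and 0.85. Its signals were 9.46, 9.28, 9.53 and 9.55 in the LIM bulls and 8.79, 9.10, 9.00 and 8.69 in the HF bulls. The channels did not overlap, and the mean was 0.56 ± 0.12 (1.47-fold, adjusted p = 0.0639, limma). DNAJC5, the cysteine string protein that guards vesicle fusion at nerve endings, had 0.23, 0.26, 0.31 and 0.50, with no overlap between the channels and a mean of 0.33 ± 0.07 (adjusted p = 0.0653, limma).

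DNAJC21, which acts in the maturation of the large ribosomal subunit, had ratios of 0.70, 0.40, 0.13 and 1.10. All were above 0 and the bulls of the breeds did not overlap, but the arrays differed widely, and the mean of 0.58 ± 0.17 gave an adjusted p of 0.103 (limma). DNAJC3, an ER-resident inhibitor of the kinase PERK, had the highest mean of the class, 0.59 ± 0.22, from ratios of 0.68, -0.23, 1.00 and 0.90, so that array 2 went against the others (adjusted p = 0.168, limma). DNAJC13, an endosomal protein, had 0.21 ± 0.07 (adjusted p = 0.139, limma).

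DNAJA and DNAJB genes encode J-domain proteins built like the bacterial DnaJ, with client binding domains of their own. DNAJB12, which is anchored in the ER membrane, had ratios of 1.20, 0.08, 0.48 and 0.13. Array 1 carried most of its mean of 0.47 ± 0.20 (adjusted p = 0.216, limma), which was 0.23 without that array. DNAJB6, in which mutations cause a limb-girdle muscular dystrophy, had -0.52, -0.33, 0.05 and -0.35, with a mean of -0.29 ± 0.11 (adjusted p = 0.161, limma) that turned to 0.22 with median centring, which is -0.028 relative to all probes under that setting. DNAJB2 had -0.22 ± 0.12 and DNAJB11, a BiP cofactor of the ER, -0.13 ± 0.09. Both also turned above 0 with median centring, to 0.41 and 0.42, which are 0.16 and 0.17 relative to all probes. The medians were -0.156 for 6 DNAJB genes, which turned to 0.42 with median centring, and 0.10 for the pair of DNAJA genes, DNAJA1 and DNAJA4. Without array 3 they were -0.092 and 0.037, and without array 1 the DNAJA median was 0.28. DNAJB3 and DNAJC16 were not well above background on any array in either channel.

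The pair of HSP90 genes had mean ratios near 0. HSP90AA1, the inducible cytosolic form, had log2 ratios of 0.05, 0.08, 0.22 and -0.16, with a mean of 0.05 ± 0.08 (adjusted p = 0.742, limma). HSP90B1, its counterpart in the ER, had -0.14, -0.18, -0.06 and -0.10. The latter lay below 0 on each array, with a mean of -0.12 ± 0.06 (adjusted p = 0.267, limma) that turned to 0.50 with median centring, or 0.25 relative to all probes. HSPBP1 and HSPBAP1 had 0.01 ± 0.10 and -0.04 ± 0.07.

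Small heat shock proteins were spread on both sides of 0. HSPB3, a muscle form that pairs with HSPB2, had the highest ratios, 0.76, 0.15, 0.90 and 0.01. The LIM bulls had log2 signals of 11.74, 11.69, 11.86 and 11.53 and the HF bulls 10.97, 11.54, 10.96 and 11.52, so that the HF bulls of arrays 1 and 3 stood below the other 6 bulls. The mean was 0.46 ± 0.18 (adjusted p = 0.175, limma).

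HSPB2, its partner, had ratios of 0.45, 0.15, -0.11 and -0.40 and a mean of 0.02 ± 0.15. HSPB6, which binds cytoskeletal and contractile proteins, had -0.36, -0.19, 0.54 and -0.15 (mean -0.04 ± 0.16). HSPB8, the partner of BAG3, had 0.43, -0.46, 0.01 and -0.29 (mean -0.08 ± 0.16). Each of these 3 genes changed sign between arrays, and HSPB6 and HSPB8 were above 0 on average with median centring (0.63 and 0.64). The median of the 4 HSPB genes tested was -0.011, or 0.66 with median centring and 0.078 without array 4. HSPB9 was not well above background on any array in either channel.

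The mitochondrial chaperonin had ratios above 0. HSPE1, the lid of the chamber, had 0.25, 0.49, 0.15 and 0.37. The LIM bulls had log2 signals of 12.75, 13.04, 12.69 and 12.88 and the HF bulls 12.50, 12.55, 12.54 and 12.51. The HF bulls were nearly identical and all lay below the LIM bulls, and the mean was 0.31 ± 0.08 (1.24-fold, adjusted p = 0.0797, limma). HSPD1, the wall of the chamber and the neighbour of HSPE1 in the gene table, had 0.42, 0.42, -0.08 and 0.40, with a mean of 0.29 ± 0.11 (adjusted p = 0.166, limma). Array 3 had the lowest ratio for both genes.

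**Figure D3:**
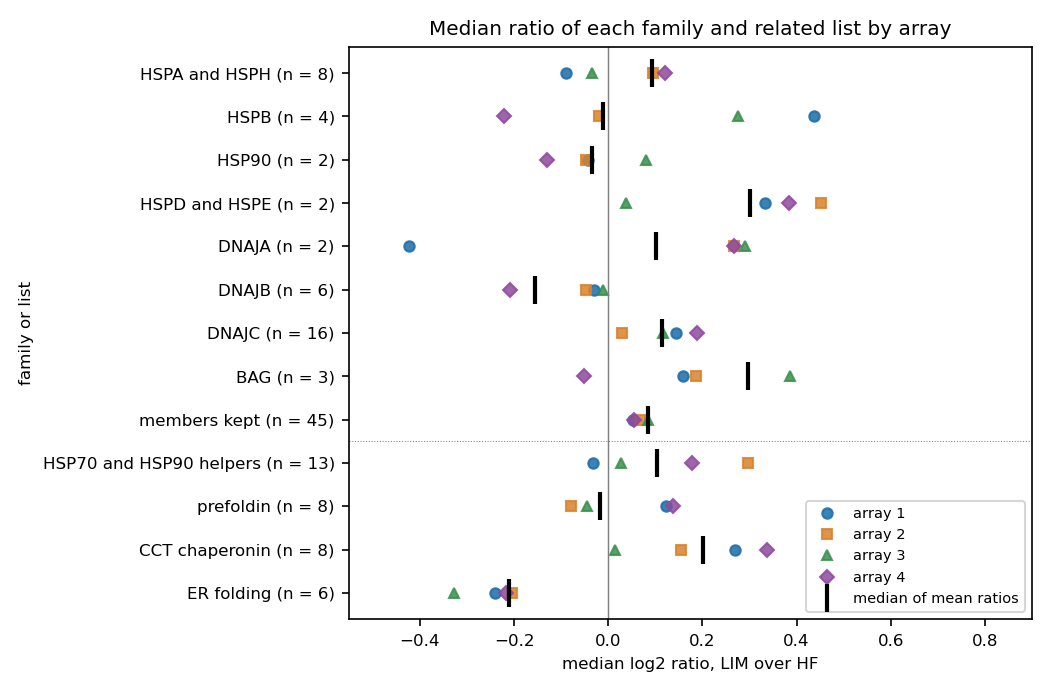
Median log2 ratio (horizontal axis) of 8 families (HSPBP1 and HSPBAP1 are not drawn), of the 45 genes together and of 4 related lists (vertical axis, with the number of genes tested), by array (symbols) and over mean ratios (bars). The bars run from -0.21 for ER folding to 0.30 for HSPD and HSPE, and the DNAJA median of array 1 stands apart from the other arrays. With median centring the bars of HSPB, HSP90, DNAJB, prefoldin and ER folding lie above 0.

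Sorted by the compartment in which the proteins work, a grouping made after the values were seen and given without a test, the 7 genes of the ER lumen had a median of -0.118. These were HSPA5, HSPA13, HSP90B1, DNAJB9, DNAJB11, DNAJC3 and DNAJC10. There were 3 with ratios below 0 on all 4 arrays (HSPA5, HSPA13 and HSP90B1), whereas DNAJC3 was at 0.59. Of these, HSPA5, HSP90B1 and DNAJB11 turned above 0 with median centring. The 4 genes of the mitochondrion (HSPD1, HSPE1, DNAJC11 and DNAJC19) had a median of 0.188.

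Heat-inducible genes of the cytosol, also grouped after their values were seen and given without a test, differed more between the HF bulls than between the LIM bulls. The group holds HSPA1A, HSPH1, DNAJB1, DNAJA1, DNAJA4, BAG3 and HSP90AA1. The SD between bulls was larger in the HF channel for 5 of these 7 genes, and ran from 0.12 to 0.60 in the HF channel and from 0.074 to 0.27 in the LIM channel. The HF channel also had the larger SD for 67.5% of all 6376 genes with a symbol and a tested probe, and for 29 of the 45 chaperone genes (64.4%), so that the direction of this difference was that of the whole array.

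DNAJB1 encodes the J-domain partner of inducible HSP70. The HF bulls of arrays 1 to 4 had log2 signals of 9.87, 8.60, 9.02 and 9.22, and the LIM bulls 9.00, 9.32, 8.94 and 8.71. Its log2 ratios were therefore -0.87, 0.72, -0.07 and -0.50, and the mean of -0.18 ± 0.26 (adjusted p = 0.702, limma) turned to 0.31 with median centring (0.060 relative to all probes) and to 0.050 without array 1. HSPH1 had signals of 10.28, 8.98, 9.33 and 9.75 in the HF bulls and of 9.80, 9.90, 9.99 and 10.16 in the LIM bulls. DNAJA1, a general cytosolic J-domain protein, had 9.96, 8.98, 9.44 and 9.74 in the HF bulls and 9.53, 9.58, 9.67 and 9.68 in the LIM bulls.

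In all 3 of these genes the HF bull of array 1 was the highest of the 8 bulls and that of array 2 the lowest. BAG3 had 13.74, 13.09, 13.30 and 13.80 in the HF bulls, where array 2 was again the lowest, and 13.90, 13.78, 13.69 and 13.74 in the LIM bulls. HSPA1A did not follow this order, since its lowest HF bull was that of array 4. DNAJA4 had ratios of -0.41, -0.07, 0.35 and 0.60 (mean 0.12 ± 0.18). The medians of the 7 ratios were -0.41, 0.69, 0.23 and -0.05 on arrays 1 to 4. A mean over the arrays thus averages bulls that stood on opposite sides of 0.

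The labels give no body temperature, handling or time to sampling of single bulls, and the part of such factors in these values was not tested. The fast-responding immediate-early genes moved between the channels: 12 of 16 tested passed as lower in the LIM channel and 0 as higher, with a median of -1.69 and of -1.81, -1.66, -1.59 and -1.94 by array. Without array 3 there were 7 past the test (51 of all probes), and without array 1, 2 or 4 there were 0 (0 of all probes). The median of that list was below 0 on all 4 arrays. The median of the 7 heat-inducible chaperones changed sign between arrays, while HSPA1A among them was above 0 on each. Its part in the chaperone ratios was not tested.

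**Figure D4:**
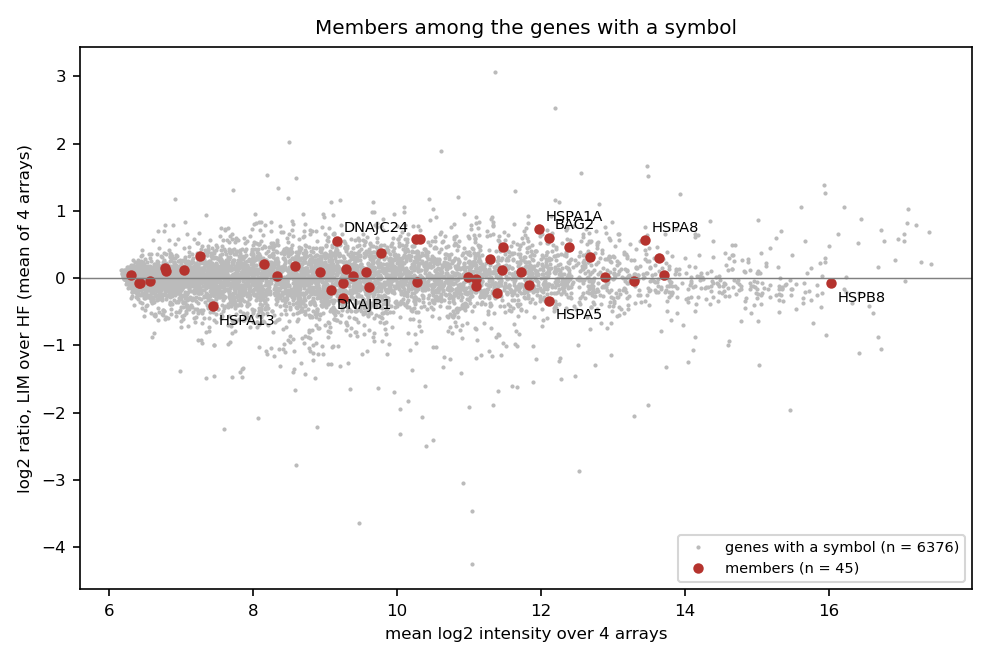
Mean log2 ratio of the LIM over the HF channel (vertical axis) against the mean log2 intensity over 4 arrays (horizontal axis) for 6376 genes with a symbol (grey) and the 45 chaperone and co-chaperone genes (red). The 45 genes stay between -0.42 and 0.73, and their median intensity of 10.3 exceeds the median of 8.67 over all these genes.

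Other genes of the folding pathways were described by lists chosen for their roles. Among cofactors of HSP70 and HSP90, 13 of 14 genes on the array were tested, of which 1 was lower in the LIM channel and 0 were higher, with a median of 0.103. The lower gene was SIL1, the nucleotide exchange factor of BiP in the ER. Its log2 ratios were -0.60, -0.62, -0.51 and -0.51, close together on the 4 arrays, with a mean of -0.56 ± 0.06 (0.679-fold, adjusted p = 0.0227, limma). With median centring the SIL1 ratio was 0.0016, which is -0.25 relative to all probes under that setting. Without 1 array its adjusted p in limma was 0.0641 to 0.0912, and the call was lost for each array left out. Those settings left 0 of all probes past the test, or 51 without array 3, so this loss is not particular to SIL1. STIP1, which links HSP70 to HSP90 and was picked after its value was seen, had 0.39 ± 0.10 (adjusted p = 0.0831, limma).

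Of 15 other ER folding genes listed, only 6 were on the array under these symbols, and all 6 were tested. Their mean ratios were below 0, from -0.68 to -0.013 (CRELD2), and 2 of them passed as lower in the LIM channel (background 2.51%). They were XBP1, a transcription factor of the unfolded protein response, and DDIT3, a transcription factor induced in prolonged ER stress. XBP1 had ratios of -0.52, -0.27, -0.36 and -0.53 and a mean of -0.42 ± 0.07 (0.748-fold, adjusted p = 0.0441, limma). DDIT3 had -0.98, -0.66, -0.31 and -0.76 and a mean of -0.68 ± 0.12 (0.624-fold, adjusted p = 0.0442, limma). The list median was -0.21, against 0.018 over all probes. Median centring turned the median to 0.21 and XBP1 to 0.21, which are -0.039 and -0.043 relative to all probes, and left DDIT3 at -0.34. Both calls were lost whenever an array was left out, where 0 of all probes passed, or 51 without array 3. The adjusted p in limma was then 0.101 to 0.151 for XBP1 and 0.0616 to 0.153 for DDIT3. Both were also lost with median centring (0.441 and 0.192) and with scale normalization (0.0534 and 0.0629). XBP1 did not pass with an offset of 16 (0.0501), processed signals (0.103), the series table or an intensity trend (0.0651), nor DDIT3 with no filter on dim probes (0.0588).

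The CCT chaperonin, which folds actin and tubulin in the cytosol, had all 8 genes tested above 0, with a median of 0.20 (0.85 with median centring), and 2 passed as higher in the LIM channel. CCT7 had ratios of 0.41, 0.52, 0.51 and 0.45, a mean of 0.47 ± 0.06 (1.39-fold, adjusted p = 0.0264, limma). CCT6A had 0.30, 0.55, 0.55 and 0.77, a mean of 0.54 ± 0.09 (1.46-fold, adjusted p = 0.0430, limma). Both calls were lost whenever an array was left out, where 0 of all probes passed, or 51 without array 3. The adjusted p in limma was then 0.0656 to 0.104 for CCT7 and 0.0642 to 0.131 for CCT6A. Both were also lost with the software's processed signals (adjusted p = 0.0775 and 0.0510, limma) and with the series table, and that of CCT6A with no filter on dim probes (0.0523).

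Prefoldin, which passes unfolded actin and tubulin to CCT, had 8 genes tested and none past the test in limma (2 at an unadjusted p under 0.05), with a median of -0.017, or 0.58 with median centring. Its subunit PFDN5 had -0.45 ± 0.10 and the prefoldin-like URI1 0.48 ± 0.10, each with an adjusted p of 0.063 (limma). HSF2, a heat shock factor, had -0.22 ± 0.10 (adjusted p = 0.235, limma), and HSF2BP, which binds it, -0.01 ± 0.06. Neither of these 2 genes passed, and HSF1 was not analysed here.

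Cell type markers moved between the channels as well. All 8 markers of skeletal muscle fibres on the array were well above background. Of these, 3 had mean ratios above 0 and 5 below 0, with a median of -0.21. The 1 gene that passed as higher was MB, myoglobin, at 1.02 ± 0.15 (adjusted p = 0.0325, limma). Signals of a list were summed on the linear scale, which weighs its brightest genes most. The log2 of the sum was 19.45 to 19.60 in the LIM bulls and 19.31 to 19.78 in the HF bulls. For 7 slow fibre genes it was 17.51 to 18.19 in the LIM bulls and 18.34 to 19.54 in the HF bulls. There was no overlap, and 1 gene passed as lower (MYL3). For 6 fast fibre genes the log2 of the sum was 19.36 to 19.49 against 19.02 to 19.17, also with no overlap (2 higher, TNNC2 and PVALB). For 6 fibroblast genes it was 14.48 to 15.39 against 13.48 to 14.58, with overlap (1 higher, COL3A1). All 7 slow fibre genes had mean ratios below 0. In the fast fibre list and in the fibroblast list 4 genes were above 0 and 2 below 0. Those below were MYH2 (-0.51 ± 0.31) and MYH1 (-0.04 ± 0.11) for fast fibres, and PDGFRA (-0.27 ± 0.19) and DCN (-0.23 ± 0.22) for fibroblasts. Endothelial, macrophage, adipocyte and erythrocyte markers overlapped between the breeds, with 0 higher and 1 lower gene (CFD) past the test in all. Of 4 adipocyte genes tested, 3 had mean ratios above 0 and 1 below 0, with a median of 0.13. All 4 endothelial and all 4 macrophage genes were below 0, and of 3 erythrocyte genes 1 was above 0 and 2 below. LEP of the adipocyte and ALAS2 of the erythrocyte list were too near background to be tested. The part of fibre type and of other cells in the chaperone ratios was not tested.

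Among the 16 tested genes outside the naming rule, DNAJC3, DNAJC5G, HSPA4, HSPA14 and HSPA1L were singled out after their values were seen. The 16 had mean ratios between -0.11 and 0.59 and adjusted p between 0.168 and 0.951 (limma). The LIM channel was well above background at 32513 to 33527 of 42990 spots per array and the HF channel at 27102 to 28769.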

How the data were processed

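The authors hybridised each array with Cy5-labelled cRNA of 1 LIM and Cy3-labelled cRNA of 1 HF bull and used the Feature Extraction software for quantification. Deposited intensity values are the median spot and local background brightness per dye, not normalized, with processed signals beside them. The deposited log10 ratios are processed Cy5 over Cy3 signal. The series value table held the same ratios, with a largest difference of 0 and column medians of 0, so scale, centring and direction were those of the scanner's ratios. Fold and log2 values were computed from the deposited intensities. Arrays of the Hereford breed were not analysed here.

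Background was corrected by normexp (offset 50), log2 ratios were normalized by loess within arrays with control spots at weight 0, and non-uniform spots (5 to 10 per array) were dropped. Saturated spots numbered 0. Spots were averaged to 21475 probes, of which 15855 were kept because 1 channel was well above background on 3 or more arrays. The offset shrinks ratios of dim probes. A two-sided limma test (version 3.58.1, lmFit and eBayes, R 4.3.3) compared mean ratios with 0, adjusted by Benjamini-Hochberg over all probes kept. The fit was tested on simulated data. Signals per channel followed loess and Aquantile.

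Probe accessions were matched to a RefSeq table (ARS-UCD2.0) used for names only, since the array design refers to another build; 8297 probes had a symbol. The brightest of all probes of a gene stood for it, and the gene was tested if that probe was kept. Named genes were, per family, up to 4 with the smallest unadjusted p, fixed well-known members, and in each list the genes past the test (the immediate-early list by counts only) or else the 2 with the smallest p. The members, lists and rules were chosen with earlier results of these data known. Nothing but the replicate number distinguishes the bulls of a breed, so p-values measure the spread between these 4 pairs. All arrays shared 1 slide and scan. Between arrays, log2 ratios correlated across probes with Pearson's r of 0.40 to 0.60; probes are not independent replicates. Alternatives were the offset, processed signals, median centring, centring on kept probes, scale normalization, filters on dim probes, array weights, a robust prior with an intensity trend, the series value table, the methods' t-test (1.3-fold or more), averaging a gene's probes, and omitting each array.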

Additional observations from a re-analysis of the deposited data

Results flagged for a closer look

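Of 60 values checked for a single array standing apart (gap over range, Dixon's ratio), 3 were past the critical value for 4 samples, and chance gives about 3. For HSPD1 the ratio was 0.958: array 3 had a log2 ratio of -0.08 and the others 0.40 to 0.42. For DNAJC27, a small J-domain GTPase, it was 0.864: array 3 had 0.39 and the others -0.28 to -0.19. For the median of the DNAJA genes it was 0.967: array 1 had -0.42 and the others 0.27 to 0.29.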

How the results depend on the processing

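The count of chaperone genes past the test was 0 with loess and 17 with median centring, where 24% of all probes passed. It was 1 (HSPA8) with scale normalization, with a signal in both channels on all arrays, with an intensity trend and robust prior, and with array weights (adjusted p = 0.0480, 0.0441, 0.0479 and 0.0447 in limma). The methods' t-test with its fold threshold called 3 (HSPA8, DNAJC24 and BAG2), and 0 after Benjamini-Hochberg adjustment. The other alternatives, including leaving out each array, gave 0. Of the 55 genes tested in the related lists, 17 passed (2 higher and 15 lower in the LIM channel), against 5.47% of all probes. Immediate-early genes made up 12 of these 17, all lower. The count for the related lists was 29 with median centring (24% of all probes). It was 0 with the adjusted t-test (0 of all probes) and 0 to 7 without 1 array (0 to 51 of all probes). The tallies of lost calls that follow include these settings, in which few or no probes passed. Of the list genes named in the report, SIL1 and XBP1 lost their calls in 5 and 10 alternatives besides median centring, and DDIT3, CCT6A and CCT7 in 8, 8 and 7 in all. The cause was not tested.

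The median of the chaperone genes was 0.61 with median centring, 0.064 centred on kept probes, 0.068 with scale normalization, 0.064 with array weights and 0.047 to 0.097 without 1 array. Family medians with median centring were 0.96 (BAG), 0.69 (DNAJA), 0.42 (DNAJB), 0.55 (DNAJC), 0.61 (HSP90), 0.60 (HSPA and HSPH), 0.66 (HSPB), 0.21 (HSPBP1 and HSPBAP1) and 0.94 (HSPD and HSPE). With processed signals and with the series table they were 0.23 (DNAJC) and 0.297 (HSPA and HSPH). Without 1 array they ranged from 0.16 to 0.41 (BAG), 0.037 to 0.28 (DNAJA), -0.17 to -0.092 (DNAJB), 0.065 to 0.14 (DNAJC), -0.073 to -0.0031 (HSP90), 0.059 to 0.13 (HSPA and HSPH), -0.028 to 0.078 (HSPB), -0.057 to 0.043 (HSPBP1 and HSPBAP1) and 0.25 to 0.39 (HSPD and HSPE).

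Of 593 values of 35 genes over 17 alternatives, 508 kept their direction and side of the threshold and 27 reversed. Median centring reversed DNAJB1 (0.31), DNAJB11 (0.42), DNAJB2 (0.41), DNAJB6 (0.22), HSP90B1 (0.50), HSPA5 (0.31), HSPB6 (0.63), HSPB8 (0.64), SIL1 (0.0016) and XBP1 (0.21). Leaving out 1 array gave ranges across 0 for DNAJA1 (-0.088 to 0.26; below 0 without array 2), DNAJA4 (-0.044 to 0.29; array 4), DNAJB1 (-0.48 to 0.050; above 0 without array 1), HSP90AA1 (-0.0089 to 0.12; array 3), HSPB2 (-0.12 to 0.16; -0.023 without array 2), HSPB6 (-0.23 to 0.067; 0.0082 without array 2), HSPB8 (-0.25 to 0.049; array 2) and HSPBP1 (-0.080 to 0.097; array 4). HSPB2 was -0.031 with processed signals and with the series table, -0.0012 centred on kept probes and -0.0075 with array weights. HSPBP1 was -0.0042 with an offset of 16, -0.0096 centred on kept probes and -0.00095 with scale normalization. Signals near background, such as HSPA1L and BAG4, limit those ratios.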
